A study of Mus musculus with 6 samples.

Results

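The C1q/TNF-related genes C1qtnf1 to C1qtnf7 were followed in C3H10T1/2 cells in which Ring1a and Ring1b had been knocked down. The members are the 7 rows of the deposited table of 20325 genes that carry these symbols. The family was selected on its knockdown and control values in earlier results of these data, so its differences between the groups are given as a description and no p-value is printed for its members. C3H10T1/2 is a multipotent mesenchymal line from C3H mouse embryos, used here as parental cells at passage 10 to 15. The knockdown group was 3 samples that received siRNAs (small interfering RNAs) to Ring1a plus Ring1b, and the control group was 3 samples that received scrambled siRNA. Polycomb repressive complex 1 has Ring1a or Ring1b as its ubiquitin ligase; it binds CpG-rich promoters and holds developmental genes silent.

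C1qtnf genes encode secreted proteins, named CTRPs, that are close relatives of adiponectin. A CTRP has a signal peptide, a collagen-like stretch made of Gly-X-Y triplets, and a globular C1q domain at its end, and it assembles into trimers and larger complexes. Adipose, vascular and skeletal tissues are known sources. CTRPs act on metabolism, blood vessels and the matrix, and AMP-activated protein kinase is reported downstream of several of them.

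Most members share a collagen-like stretch in their coding sequences, besides the C1q domain, which was not compared here. The longest unbroken run of triplets that open with a glycine codon (GGN) was counted in GENCODE M21 coding sequences. It was 34 triplets in C1qtnf2 and C1qtnf7, 23 in C1qtnf3 and C1qtnf5, and 14 in C1qtnf1 and C1qtnf6. Of 21562 coding genes, 0.362% had a run of at least 14. C1qtnf4, whose protein is known to have another C1q domain in place of the collagen-like stretch, had a run of 2, a length that 74.3% of coding genes reach. The runs of the 4 members that these cells expressed at a level that could be tested are printed 5′ to 3′ with the glycine codons in capitals.
C1qtnf1: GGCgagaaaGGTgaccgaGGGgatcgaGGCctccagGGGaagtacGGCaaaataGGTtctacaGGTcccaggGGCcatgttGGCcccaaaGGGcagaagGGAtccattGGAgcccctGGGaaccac
C1qtnf3: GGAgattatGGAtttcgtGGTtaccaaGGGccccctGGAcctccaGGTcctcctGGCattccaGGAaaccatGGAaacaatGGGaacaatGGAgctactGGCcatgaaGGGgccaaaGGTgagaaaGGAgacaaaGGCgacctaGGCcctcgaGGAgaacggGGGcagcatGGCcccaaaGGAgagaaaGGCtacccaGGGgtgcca
C1qtnf5: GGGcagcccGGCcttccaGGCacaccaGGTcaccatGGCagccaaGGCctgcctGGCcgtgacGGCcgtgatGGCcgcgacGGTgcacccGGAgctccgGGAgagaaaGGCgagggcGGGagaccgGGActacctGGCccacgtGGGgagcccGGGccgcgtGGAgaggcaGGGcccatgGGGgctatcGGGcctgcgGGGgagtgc
C1qtnf6: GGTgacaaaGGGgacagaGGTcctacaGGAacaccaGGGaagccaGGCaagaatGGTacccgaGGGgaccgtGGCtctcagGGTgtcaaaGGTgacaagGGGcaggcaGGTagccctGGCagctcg

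Each value is an estimated count per gene that the authors scaled by median normalization. With the most frequent low value of a library taken as 1 read, depth was estimated at 23.2, 4.6 and 18.5 M reads in knockdown replicates 1, 2 and 3, against 51.8, 5.4 and 15.1 M reads in control replicates 1, 2 and 3 (M for mega). No label states that the replicates were separate cultures, so p-values reflect only how far these libraries scatter, and that scatter may be technical. Rnf2, which encodes Ring1b, had 129, 76.5 and 152 in knockdown libraries and 815, 829 and 799 in control libraries and fell (log2 fold change −2.82, SE 0.28, limma adjusted p = 0.00946). Ring1, which encodes Ring1a, had 162, 268 and 186 in knockdown libraries and 336, 386 and 374 in control libraries and missed the threshold (log2 fold change −0.86, SE 0.23, limma adjusted p = 0.104), but it passed without knockdown replicate 2 (log2 fold change −1.06, limma adjusted p = 3.9e-06) and with the same total per library (limma adjusted p = 0.0441). Knockdown replicate 2 stood apart: across genes its log2(value + 1) correlated (Pearson) with those of the other libraries at 0.952 to 0.965, and all other pairs lay between 0.983 and 0.996. In that library short transcripts were higher and long ones lower than in the other knockdowns. All 8 mesenchymal markers checked were expressed (summed value 274688 to 391083 in the knockdowns and 334394 to 362990 in the controls). Most of that sum was Col1a1, Col1a2 and Vim, so it says little about the others. Single markers differed both ways, such as Pdgfra (mean 1858 in the knockdowns and 4602 in the controls) and Thy1 (811 and 459). With all 6 libraries 0 of the 8 passed. Without knockdown replicate 2, 5 were higher and 3 lower, where 49.9% of all genes tested passed. Markers of other cells were mostly low: listed at 0 in all 6 libraries were 3 of 6 adipocyte, 2 of 8 leukocyte, 1 of 6 endothelial and 0 of 6 epithelial markers. The highest of each list were Fabp4, Cd14 (mean 102 in the knockdowns and 89.6 in the controls), Tek (128 in the knockdowns and 94.6 in the controls) and Cdh1 (24.0 in the knockdowns and 20.2 in the controls), none of which passed.

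The 4 expressed members did not move as a group. C1qtnf3 was about 26 times lower in the knockdowns, C1qtnf6 was moderately lower, C1qtnf1 was moderately higher, and C1qtnf5 was high in knockdown replicate 2 and otherwise near the controls. C1qtnf2 gave a few reads in each knockdown library and next to none in the controls, while C1qtnf4 and C1qtnf7 were listed at or near 0 everywhere. In a limma fit of log2(value + 1) over the 12085 genes with a mean of at least 10, 4 of the 7 members could be tested and 1, C1qtnf3, passed a Benjamini-Hochberg adjusted p of 0.05. Of all genes tested 4.98% passed, with 1.78% lower, and since this contrast chose the members nothing is read from their count. Values of the groups did not overlap in 3 of the 4 tested members, against 44.3% of all genes tested. Without knockdown replicate 2, C1qtnf1 (higher) and C1qtnf6 (lower) passed too, in a fit where 49.9% of genes passed; without any 1 of the controls 0 members passed, in fits that called 0 genes of the whole table (1495, 1529 and 1475 at an unadjusted p under 0.05 without control replicates 1, 2 and 3). The 4 had a median log2 fold change of −0.02, against 0.01 for all genes tested. RNA from whole cultures cannot tell fewer expressing cells from less RNA per cell.

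**Figure D1:**
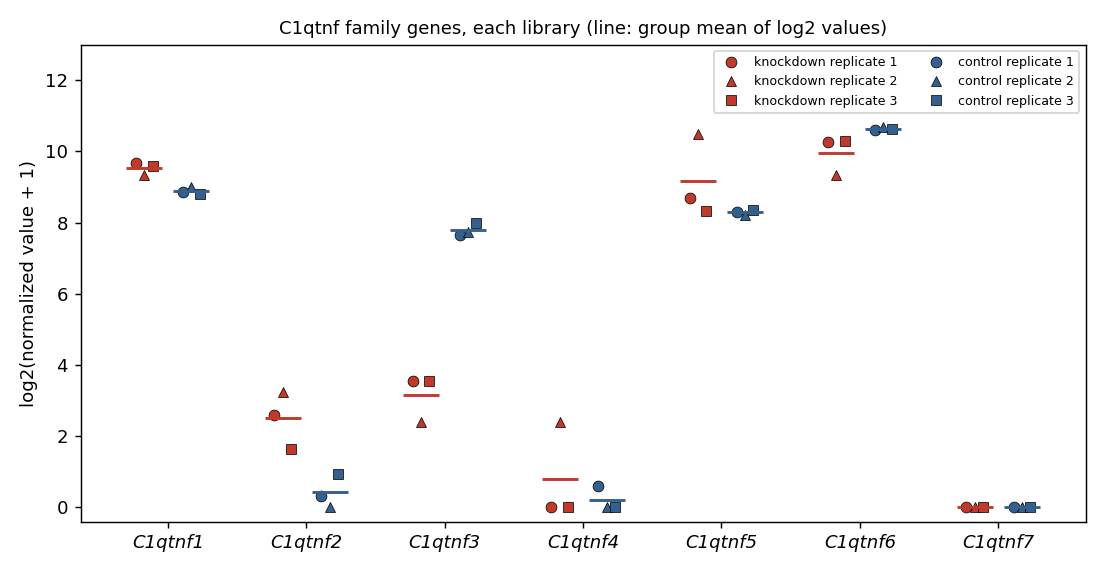
Normalized value of each C1qtnf gene in each library, as log2(value + 1), knockdown libraries in red and control libraries in blue, with a line at the group mean of the log2 values. The 3 knockdown points of C1qtnf3 (4.25 to 10.7 before the log) lie far below its 3 control points (199.6 to 255), and C1qtnf7 is listed at 0 in all 6 libraries.

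C1qtnf3 encodes cartonectin (CTRP3), also named CORS26. It stood at 10.7, 4.25 and 10.7 in knockdown replicates 1, 2 and 3 and at 199.6, 213 and 255 in control replicates 1, 2 and 3. Every knockdown library lay below every control library, with no value between them. The means were 8.55 ± 3.72 in the knockdowns and 222 ± 28.7 in the controls (SD, n = 3 each), a 26.0-fold lower level, and the log2 fold change was −4.63 (SE 0.37). The knockdown values correspond to about 19, 1 and 15 reads and the control values to about 771, 85 and 282. The single read in knockdown replicate 2 has an exact 95% Poisson interval of 0.108 to 23.7 in normalized units, which covers counting error only. Pooling reads over each group gave 35 knockdown and 1138 control reads, a level 20.7 times lower in the knockdowns (exact 95% interval 14.8 to 29.8, counting error only). This interval leaves out the scatter between libraries and is no test of the group difference. The authors' deposited list of differential genes holds 323 genes, beside 20325 in the full table. C1qtnf3 is the 1 member listed, with a fold of 0.0389 (knockdown over control). The name of that list carries a fold-change tag, so a fold cut may have kept members with smaller differences out. The log2 fold change stayed between −4.83 and −4.25 when each library was left out in turn.

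GENCODE M21 (GRCm38) places C1qtnf3 on chromosome 15 at 10952332 to 10980150 on the plus strand and lists no gene overlapping it. The 250 bases before its RefSeq start (GRCm38.p6, chr15:10952082-10952331, plus strand) are shown beside those of C1qtnf2 (GRCm38.p6, chr11:43474056-43474305, plus strand), the member with the opposite difference at low level. Both are printed 5′ to 3′ with CG dinucleotides in capitals, since CpG-rich promoters are where Polycomb repressive complex 1 is known to bind.
C1qtnf3: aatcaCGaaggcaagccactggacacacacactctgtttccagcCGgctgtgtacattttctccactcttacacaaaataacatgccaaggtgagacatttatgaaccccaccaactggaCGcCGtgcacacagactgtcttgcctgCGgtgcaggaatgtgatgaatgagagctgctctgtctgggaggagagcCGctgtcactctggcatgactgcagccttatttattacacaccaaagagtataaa
C1qtnf2: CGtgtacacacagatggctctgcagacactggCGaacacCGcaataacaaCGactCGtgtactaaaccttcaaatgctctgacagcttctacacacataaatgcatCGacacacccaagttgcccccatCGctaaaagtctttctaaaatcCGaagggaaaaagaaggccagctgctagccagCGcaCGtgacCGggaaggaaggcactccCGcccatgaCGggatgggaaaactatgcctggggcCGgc
The stretch before C1qtnf3 held 6 CG dinucleotides and that before C1qtnf2 held 14. RefSeq promoter windows of 300 bases, which add the 50 bases after the start, matched 5 of the 7 members. They held 7 CG dinucleotides in C1qtnf3, 18 in C1qtnf2, 6 in C1qtnf5, 10 in C1qtnf6 and 8 in C1qtnf7. The median was 7 over all 27025 windows and 21 over the 8631 windows of tested genes. C1qtnf2 was thus at the 69.9th percentile of all windows and C1qtnf3 at the 47.7th. The window of C1qtnf3 was the 1 among those of members to hold TATAAA, searched on both strands, which 14.2% of all windows hold. These are counts of letters and no binding was measured.

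Glt25d2, Plekhb1 and Ucma had the patterns most like that of C1qtnf3, by the root mean square difference of log2(value + 1) over the 6 libraries after each gene was centred on its mean. Glt25d2, an older symbol of Colgalt2, encodes an enzyme that adds galactose to hydroxylysine in collagen-like sequences. It differed from C1qtnf3 by 0.13 log2 units and had 12.4, 4.25 and 13.5 in knockdown libraries and 209.7, 228 and 240.3 in control libraries. In all 6 libraries it was therefore close to C1qtnf3 in its deposited value as well as in its pattern. Plekhb1, a pleckstrin homology domain gene, differed by 0.36 and had 1.70, 0 and 1.42 in knockdown libraries and 25.9, 25.1 and 32.5 in control libraries. Ucma, which encodes a matrix protein of the upper growth plate, differed by 0.37 and had 0.57, 0 and 0 in knockdown libraries and 24.9, 20.05 and 28.0 in control libraries. In knockdown replicates 1, 2 and 3 a value of 0.565, 4.25 and 0.711 stands for 1 read. Plekhb1 and Ucma therefore rest on at most 3 reads in each knockdown library. Glt25d2 rests on 1 read in knockdown replicate 2, like C1qtnf3. Cartilage markers moved with C1qtnf3: of 8 listed 7 could be tested, 4 fell (limma, adjusted p under 0.05) and 0 rose. Of all genes tested 1.78% fell. The markers summed to 5493 to 10822 in the knockdowns and 37158 to 39159 in the controls. Most of that sum was Col2a1, with a mean of 5040 in the knockdowns and 27623 in the controls. Col11a2, Comp and Hapln1 had lower means in the knockdowns but did not pass. The part of the cartilage markers in the difference of C1qtnf3 was not tested.

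**Figure D2:**
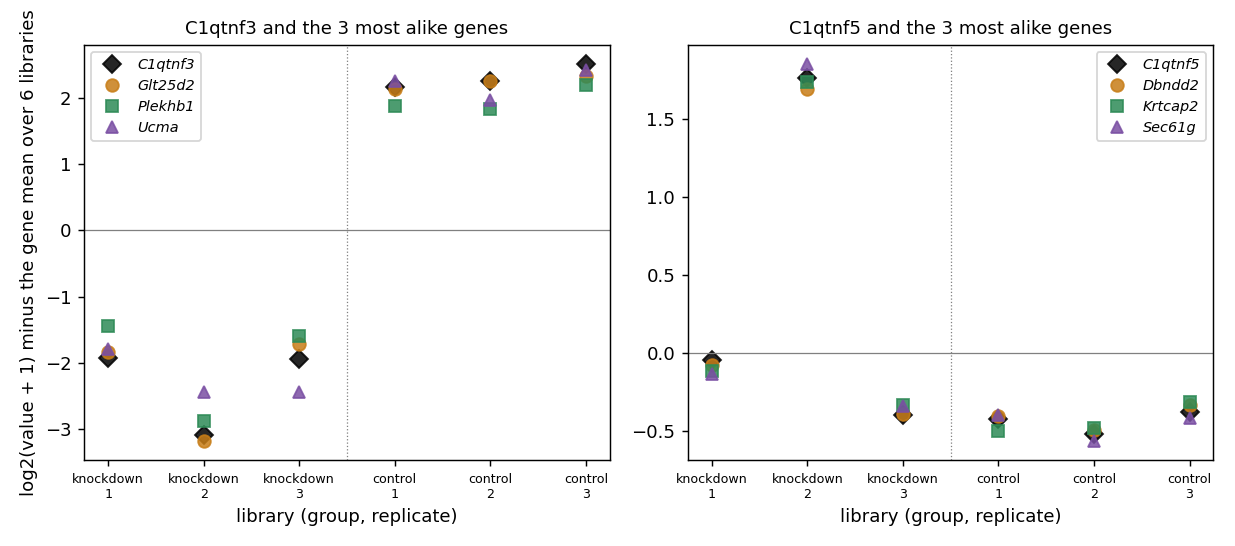
log2(value + 1) minus the gene's mean over the 6 libraries, by library, for C1qtnf3 (left) and C1qtnf5 (right) with the 3 genes whose pattern was most alike. The C1qtnf3 group separates knockdowns from controls, while the C1qtnf5 group stands out in knockdown replicate 2. Each group was picked on these same values.

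C1qtnf6 encodes CTRP6, a secreted protein that restrains the alternative complement pathway in mice, and it had the highest level per length of the family in the controls. It had 1235, 646 and 1246 in knockdown libraries and 1552, 1656 and 1581 in control libraries. All knockdown values lay below all control values, and replicates 1 and 3 of the knockdown sat close together, well above replicate 2. The means were 1042 ± 343 in the knockdowns and 1597 ± 53.6 in the controls (SD, n = 3 each), a ratio of 0.653, and the log2 fold change was −0.68 (SE 0.29). Without knockdown replicate 2 the log2 fold change was −0.36 (SE 0.05). GENCODE M21 places C1qtnf6 on chromosome 15 at 78523346 to 78531416 on the minus strand, where it overlaps the antisense gene Gm49490 by 308 bases.

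C1qtnf1 encodes CTRP1, made in adipose tissue and the vessel wall, where it interferes with the binding of von Willebrand factor to collagen. It had 816, 641 and 768 in knockdown libraries and 463, 513 and 449 in control libraries, so the groups did not overlap. The means were 742 ± 90.8 in the knockdowns and 475 ± 33.5 in the controls (SD, n = 3 each), a 1.56-fold higher level. The log2 fold change was 0.64 (SE 0.16), with a range of 0.56 to 0.74 when each library was left out in turn. The locus lies on chromosome 11 at 118428203 to 118449963, plus strand (GENCODE M21), and overlaps the antisense gene Gm11747 by 5764 bases, so reads of both could mix if counting ignored strand, a setting that the sources used here do not give.

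C1qtnf5 encodes CTRP5, whose human gene is mutated in late-onset retinal degeneration. It had 412, 1443 and 322 in knockdown libraries and 316, 295 and 326 in control libraries. Knockdown replicate 3 lay inside the control range, replicate 1 above it and replicate 2 far above it, so the groups overlapped. The means were 725 ± 623 in the knockdowns and 313 ± 15.7 in the controls (SD, n = 3 each), and the log2 fold change was 0.88 (SE 0.57). Without knockdown replicate 2 it was 0.22 (SE 0.11).

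The distance of knockdown replicate 2 from the other knockdowns followed transcript length over all genes, and C1qtnf5 has the shortest transcripts of the 4 tested members. Its median protein-coding transcript in GENCODE M21 is 961 nt, against 1598 nt for C1qtnf1, 2201 nt for C1qtnf6 and 2213 nt for C1qtnf3. In knockdown replicate 2 C1qtnf5 was 1.98 log2 units above the mean of knockdown replicates 1 and 3. The median of that difference was 0.81 over the 2728 tested genes in the same length class (the shortest of 4 classes of like size), where C1qtnf5 lay at the 82.0th percentile. C1qtnf1, C1qtnf6 and C1qtnf3 were in the next class, with a median difference of 0.22, and had −0.31, −0.94 and −1.16, at the 31.8th, 13.6th and 9.22th percentiles. C1qtnf6 and C1qtnf3 lie at the upper edge of that class, which ends at 2238 nt, and the median of the class above was −0.30. The C1qtnf3 value in that library rests on 1 read. The part of length in these values was not tested.

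**Figure D3:**
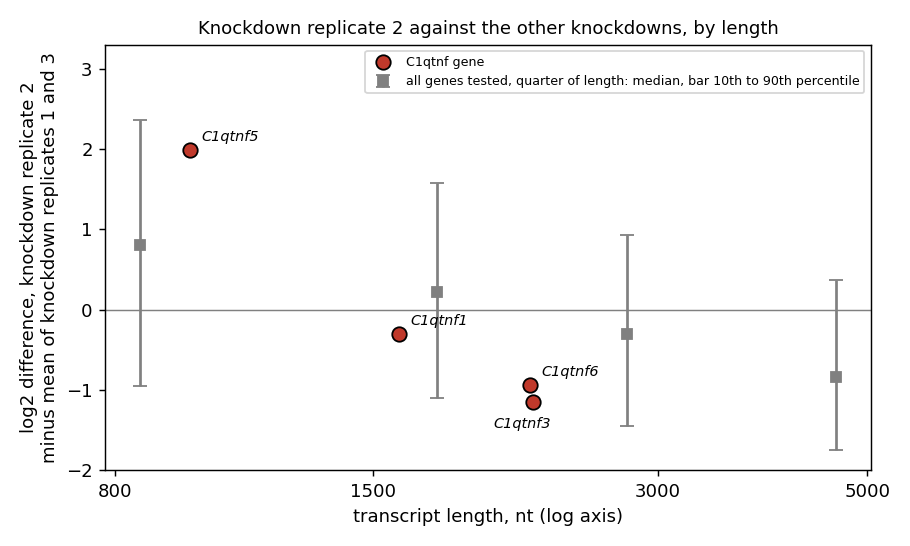
Difference in log2(value + 1) between knockdown replicate 2 and the mean of knockdown replicates 1 and 3 (vertical axis) against transcript length in nucleotides (log axis). Grey squares are medians of all tested genes in 4 length classes, with bars at the 10th and 90th percentiles, and red points are the 4 tested C1qtnf genes; C1qtnf5 (1.98) lies above the median of its class (0.81) and the other 3 lie below theirs (0.22), with C1qtnf3 and C1qtnf6 near the edge of a class whose median is −0.30.

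Genes whose pattern was most like that of C1qtnf5 were picked on these 6 libraries, so they shared its high value in knockdown replicate 2. They were Dbndd2, Krtcap2, which encodes a subunit of the oligosaccharyltransferase, and Sec61g, which encodes a subunit of the channel that takes secreted proteins into the endoplasmic reticulum. They differed from C1qtnf5 by 0.04, 0.06 and 0.06 log2 units over the 6 libraries. Sec61g, for example, had 1192, 4723 and 1031 in knockdown libraries and 991, 882 and 978 in control libraries.

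The C1qtnf5 locus also limits what its values can be assigned to. GENCODE M21 places it on chromosome 9 at 44107245 to 44109187, plus strand, wholly inside Mfrp, which encodes a membrane frizzled-related protein and is known to be transcribed together with C1qtnf5. The RefSeq promoter window of both genes is the same, chr9:44101520-44101819. Mfrp itself had values of 9.11, 15.0 and 12.97 in the knockdowns and 6.00, 5.29 and 8.92 in the controls, a mean below the limit for testing. Estimated counts can split reads between such nested genes. Rnf26, on the other strand across the locus, had 984, 1025 and 1065 in knockdown libraries and 764, 905 and 868 in control libraries, with knockdown replicate 3 its highest library, and it did not pass (log2 fold change 0.28, SE 0.14, limma adjusted p = 0.323). It passed without knockdown replicate 2 (limma adjusted p = 0.00936), where 49.9% of all genes tested passed. GENCODE M21 also lists the protein-coding Gm49380 (1943 bases of overlap) and Gm20444 (1579 bases) on that other strand.

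**Figure D4:**
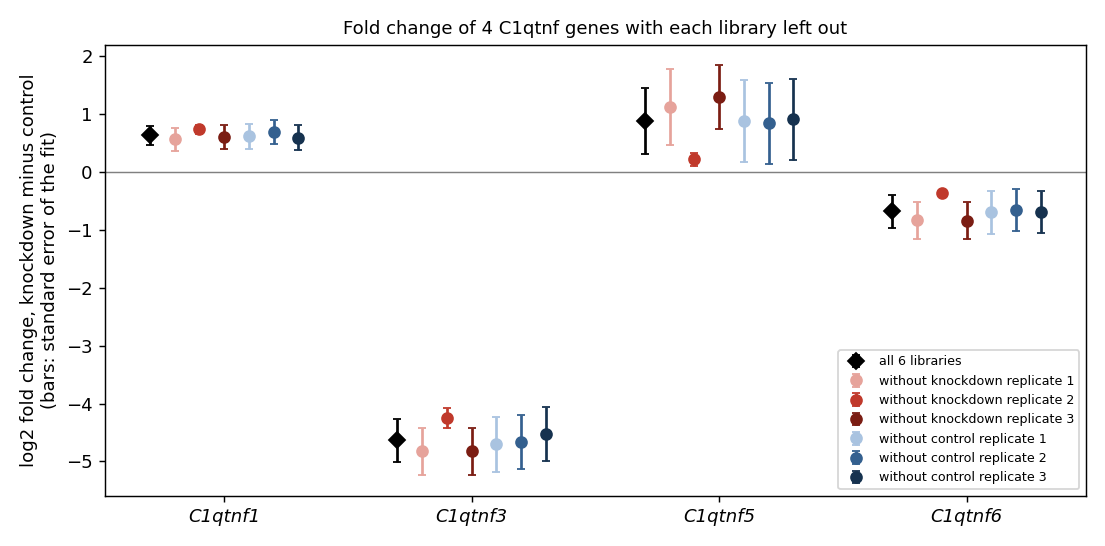
log2 fold change (knockdown minus control) of the 4 tested C1qtnf genes with all 6 libraries (black) and with each library left out, with bars for the standard error of the fit. C1qtnf3 stays between −4.83 and −4.25, while C1qtnf5 ranges from 0.22 without knockdown replicate 2 to 1.30 without knockdown replicate 3.

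C1qtnf2, C1qtnf4 and C1qtnf7 were below the limit for testing. GENCODE M21 places C1qtnf2 on chromosome 11 at 43474276 to 43491525, C1qtnf4 on chromosome 2 at 90885860 to 90890525 and C1qtnf7 on chromosome 5 at 43515538 to 43618803, each on the plus strand. C1qtnf2 encodes CTRP2, a protein close to CTRP7. It had 5.09, 8.503 and 2.13 in knockdown libraries and 0.259, 0 and 0.903 in control libraries, which correspond to 9, 2 and 3 reads and to 1, 0 and 1 read. All 3 knockdown values lay above all 3 control values. The 0 of control replicate 2 has an exact 95% upper limit of 9.24 in normalized units, above each knockdown value, so that library cannot show a lower level. Groups were separate in 44.3% of all genes tested, a share that does not cover genes this low. The pooled reads, 14 in the knockdowns and 2 in the controls, gave a ratio of 11.0 with an exact 95% interval of 2.53 to 99.9 for counting error alone. That interval leaves out the scatter between libraries and is no test of the group difference. C1qtnf4, which encodes CTRP4, had 0, 4.25 and 0 in knockdown libraries and 0.518, 0 and 0 in control libraries, that is 1 read in the knockdowns and 2 in the controls, so no fold is given. C1qtnf7 was listed at 0 in all 6 libraries. So was Gstk1, a broadly expressed gene, so a listed 0 in this table need not be a measured absence.

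Levels were set against each other per kilobase of median transcript length, in normalized value per kb. In knockdown replicates 1 and 3 the order was C1qtnf6 (561 and 566), C1qtnf1 (511 and 481) and C1qtnf5 (428 and 335), with C1qtnf3 at 4.85 and 4.82 and C1qtnf2 at 4.44 and 1.86. In knockdown replicate 2 C1qtnf5 came first, at 1502, before C1qtnf1 at 401 and C1qtnf6 at 294. In the controls C1qtnf6 was highest (725 ± 24.4), followed by C1qtnf5 (325 ± 16.4) and C1qtnf1 (297 ± 20.9), with C1qtnf3 at 101 ± 12.98 and C1qtnf2 at 0.338 ± 0.406 (SD, n = 3). In the controls the ranges of C1qtnf5 (307 to 339) and C1qtnf1 (281 to 321) overlapped, whereas C1qtnf6 (705 to 753) and C1qtnf3 (90.2 to 115) were clear of both. In the knockdowns the ranges of C1qtnf5 (335 to 1502), C1qtnf6 (294 to 566) and C1qtnf1 (401 to 511) overlapped, and so did those of C1qtnf2 (1.86 to 7.41) and C1qtnf3 (1.92 to 4.85).

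Other genes with a C1q domain changed in both directions. The list held 24 genes, all in the table, of which 9 could be tested. Col8a2 and Emilin2 rose, Col8a1 and Col10a1 fell, and the median log2 fold change of the 9 was −0.34 (all genes tested 0.01). Of all genes tested 3.2% rose and 1.78% fell. Without knockdown replicate 2, C1ql3 entered too, so 10 could be tested. In that fit 3 relatives rose and 3 fell, where 23.8% of all genes tested rose and 26.1% fell. The median of the 10 was 0.09, over a set that is not the same as the 9. The network-forming collagens among the relatives changed in opposite directions.

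Col8a1 and Col8a2 encode the chains of type VIII collagen, a short-chain collagen of vessel walls and of the corneal basement membrane. Col8a1 had 106, 38.3 and 146 in knockdown libraries and 563, 942 and 913 in control libraries (log2 fold change −3.21, SE 0.53, limma adjusted p = 0.0327). Col8a2 had 1494, 1186 and 1274 in knockdown libraries and 731, 571 and 599 in control libraries (log2 fold change 1.06, SE 0.17, limma adjusted p = 0.0303). In both genes the groups were separate, in opposite directions. Col10a1, the collagen of hypertrophic cartilage, had 36.8, 25.5 and 50.5 in knockdown libraries and 240.8, 183 and 163 in control libraries (log2 fold change −2.38, SE 0.31, limma adjusted p = 0.0174). Emilin2, which encodes an elastin-associated glycoprotein, had 2475, 1688 and 2220 in knockdown libraries and 717, 819.7 and 775 in control libraries (log2 fold change 1.45, SE 0.19, limma adjusted p = 0.0169). Every knockdown value of Emilin2 was above every control value, and every one of Col10a1 below. Groups were separate in 44.3% of all genes tested. All 4 passed without knockdown replicate 2, where 49.9% of all genes tested passed. None passed without any 1 of the controls, in fits that called 0 genes of the whole table. None passed without knockdown replicate 1 either, where 28 of 12081 genes did. Without knockdown replicate 3 Col10a1 alone passed (limma adjusted p = 0.0456), and with every library scaled to the same total it was again the 1 that passed (limma adjusted p = 0.0487). Those fits called 94 of 12089 and 302 of 12079 genes. Col8a2 also missed the threshold with the same upper quartile per library (limma adjusted p = 0.0542).

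**Figure D5:**
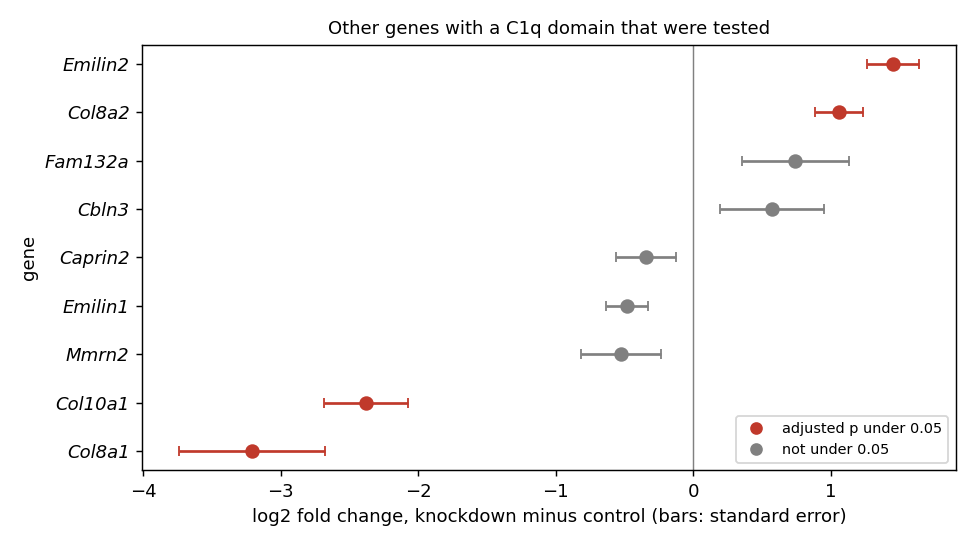
log2 fold change (knockdown minus control) with standard error for the 9 tested genes that have a C1q domain and are not among C1qtnf1 to C1qtnf7. Red marks an adjusted p under 0.05: Emilin2 (1.45) and Col8a2 (1.06) are higher in the knockdowns, Col10a1 (−2.38) and Col8a1 (−3.21) lower.

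Among the relatives below the limit, some had few reads and are named after their values were seen. Adipoq, which encodes adiponectin, had 1.13, 0 and 1.42 in knockdown libraries and 11.1, 5.01 and 9.03 in control libraries, on about 2, 0 and 2 reads in the knockdowns and 43, 2 and 10 in the controls. The 6 adipocyte markers, Adipoq among them, summed to 50.5 to 166 in the knockdowns and to 35.1 to 44.5 in the controls, and most of that sum was Fabp4, a fatty acid binding protein gene, with 50.3, 162 and 49.0 in knockdown libraries and 33.1, 30.1 and 27.1 in control libraries (limma adjusted p = 0.233). Plin1, Cfd and Lep were listed at 0 throughout. C1ql3, which encodes a synaptic C1q-like protein, had 22.0, 9.86 and 19.4 in knockdown libraries and 3.39, 0 and 5.29 in control libraries. These rest on about 39, 2 and 27 reads in the knockdowns and 13, 0 and 6 in the controls. The 3 knockdown values of C1ql3 lay above its 3 control values. The 0 of control replicate 2 has an exact 95% upper limit of 9.24, close to the 9.86 of knockdown replicate 2. Groups were separate in 44.3% of all genes tested with all 6 libraries, a share that leaves out genes below the limit. C1qb, C1qc, C1ql2, Cbln2, Cbln4 and Mmrn1 were listed at 0 in all 6 libraries.

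Of 15 genes for enzymes and chaperones that hydroxylate, glycosylate, fold or link collagen-like secreted proteins, 14 could be tested, 1 rose and 2 fell, against 3.2% and 1.78% of all genes tested. The median log2 fold change was 0.18, and 0.02 without knockdown replicate 2. P4ha2, which encodes a prolyl hydroxylase subunit, had 3807, 3694 and 3141 in knockdown libraries and 1945, 1837 and 1819 in control libraries (log2 fold change 0.92, SE 0.14, limma adjusted p = 0.0272). Plod1, a lysyl hydroxylase gene, had 1738, 1968 and 1736 in knockdown libraries and 3555, 3405 and 3675 in control libraries (log2 fold change −0.97, SE 0.14, limma adjusted p = 0.0201). Glt25d2, described above for its likeness to C1qtnf3, fell most (log2 fold change −4.49, SE 0.43, limma adjusted p = 0.00918). In all 3 the groups were separate, as in 44.3% of all genes tested. All 3 passed without knockdown replicate 2, where 9 of the 14 passed, against 49.9% of all genes. None passed without any 1 of the controls, in fits that called 0 genes of the whole table. None passed without knockdown replicate 1 either, where 28 of 12081 genes did. Without knockdown replicate 3 Glt25d2 alone passed (limma adjusted p = 0.0418), in a fit that called 94 of 12089 genes. P4ha2 was lost with the same total per library (limma adjusted p = 0.151).

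Of 9 receptor and binding partner genes of C1q-domain proteins, 6 could be tested, 0 rose and 0 fell in limma (0 at an unadjusted p under 0.05; median log2 fold change −0.14). Lrp1, an endocytic receptor, and Calr, the chaperone calreticulin, were the most abundant. Lrp1 had 38831, 15272 and 45968 in knockdown libraries and 48857, 52922 and 48515 in control libraries (log2 fold change −0.73, SE 0.45), and Calr had 20332, 47687 and 19749 in knockdown libraries and 18242, 17508 and 17555 in control libraries (log2 fold change 0.59, SE 0.38). In both, knockdown replicate 2 was the library farthest from the controls. Rxfp1 and Bai3 had 1 library each above 0. With knockdown replicate 2 left out, Lrp1 was at −0.24 and Calr at 0.17 (log2 fold changes), and 2 of the 6 were called higher and 2 lower, in a fit that called 23.8% of all genes higher and 26.1% lower.

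Of 7 genes for subunits of AMP-activated protein kinase, 6 could be tested, 0 rose and 0 fell in limma (1 at an unadjusted p under 0.05; median log2 fold change 0.21). Prkaa1, which encodes a catalytic subunit, had 1066, 621 and 1084 in knockdown libraries and 1158, 1203 and 1140.0 in control libraries (log2 fold change −0.38, SE 0.25). Prkag1, which encodes a regulatory subunit, had 1034, 1631 and 961 in knockdown libraries and 827, 864 and 828 in control libraries (log2 fold change 0.48, SE 0.23). Their groups did not overlap, as in 44.3% of all genes tested. With knockdown replicate 2 left out, Prkaa1 was at −0.12 and Prkag1 at 0.25 (log2 fold changes), and 3 of the 6 were called higher and 0 lower, where 23.8% of all genes were called higher and 26.1% lower. Kinase activity was not measured.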

How the data were processed

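RNA of 6 samples of C3H10T1/2 cells was sequenced, 3 knockdown and 3 control. Trizol extraction and Illumina TruSeq libraries are stated in the labels' protocols. Bowtie 1.0.0, RSEM 1.2.12 and mm9 are named in the submitters' processing notes. The sources used here do not give the annotation or the strand setting. How the authors chose their list is not stated either. The name of the list carries a fold-change tag, so a fold cut may have decided which genes entered it. The authors deposited a signal per gene and library, which are estimated counts divided by a size factor per library (median normalization, per the names of the deposited files), and a list of 323 genes with a fold ratio (knockdown over control) that the authors computed.

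Genes with a mean of at least 10 entered a two-sided limma fit (version 3.58.1, R 4.3.3) of log2(value + 1), with trended, robust empirical Bayes variances (fold changes are knockdown minus control; Benjamini-Hochberg adjusted p of 0.05 over all genes). The offset understates changes of low genes. Exact permutation of 3 against 3 cannot reach 0.05, so single genes rest on the model. It was tested on simulated data of even depth, in which no library stood apart as knockdown replicate 2 does. That test therefore cannot vouch for single genes here. The most frequent low value was taken as 1 read; 88.3 to 90.5% of values up to 20 reads were whole multiples within 0.1 read, too few to treat them as recovered reads, and count tests were left out. Read numbers are therefore approximate, and intervals and limits cover counting error only. No pair looked like 1 library deposited again (chi-square per degree of freedom at least 1.51), which does not show that the samples were separate cultures.

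Named genes are the members, genes at their loci, Ring1 and Rnf2, the members of each list that passed (the 2 most abundant where none did) and the 3 genes most alike in pattern to the lowest and the highest member. Members and lists were chosen with earlier results of these data known. GENCODE M21 and RefSeq sequences are of GRCm38, a newer build than the authors', and were used for lengths, loci and sequences. No protein sequences were used here.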

Additional observations from a re-analysis of the deposited data

How the results depend on the processing

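Counts of calls depended on the libraries far more than on the offset or the low-value filter. The genes called, 602 of 12085 (387 higher and 215 lower), became 302 with the same total per library, 8810 with limma's library weights, whose estimate stopped before it converged, and 0 with the replicate number as a block (1866 at an unadjusted p under 0.05). Leaving out 1 library gave 0 to 5991 genes, with 0 to 3 of the members, 0 to 6 of the C1q-domain relatives, 0 to 9 of the collagen-domain processing genes, 0 to 4 of the receptor and binding partner genes and 0 to 3 of the AMPK subunit genes, each time most without knockdown replicate 2. With library weights those lists had 4, 7, 12, 4 and 6 calls. With the replicate block 0 members, 0 relatives and 0 processing genes passed, and with the same total per library 1 of the relatives did. Deviations from the group means correlated at 0.17, −0.05 and −0.05 between samples of the same replicate number. Between samples of unlike number they correlated at −0.17 to 0.11. With 3 libraries per group, 1 of them standing apart, these values can neither show nor exclude a shared batch. The causes of these shifts were not tested.

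Scaling to the same total shifted the median over all genes to −0.14 on the log2 scale. It turned the sign of Adipor2 (−0.0931), Serpinh1 (−0.110) and Prkag2 (−0.0658). Leaving out 1 library, the log2 fold change ranged from −0.00804 to 0.153 for Adipor2 (lowest without knockdown replicate 3), from −0.0267 to 0.0904 for Serpinh1 and from −0.256 to 0.930 for Ppib (both lowest without knockdown replicate 2). Ppib was at −0.175 with library weights. C1qtnf1, C1qtnf3, C1qtnf5 and C1qtnf6 kept their direction in all 15 alternatives. C1qtnf3 passed in all but the replicate block and the 3 fits without a control, which called 0 genes of the whole table.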
